A study of Mus musculus with 21 samples.

Results

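Long-term haematopoietic stem cells (LT-HSC) labelled as carrying floxed retinoid X receptor genes and a floxed allele of a Myc-family gene were compared with stem cells of mice that carry the same Cre recombinase and no floxed gene. The comparison holds 6 of the 21 libraries of the series, 3 in each group, and its members are all LT-HSC libraries of the labels' second batch with those 2 genotypes. The Myc allele group (replicates 1 to 3) has the genotype Vav1Cre+Rxrabfl/fl Myclfl/+, that is, floxed alleles of Rxra and Rxrb on both chromosomes and 1 floxed Myc-family allele. The control group (replicates 4 to 6, called Cre controls) is Vav1Cre+WT. Both groups therefore carry a Cre driven by Vav1, a gene active throughout the blood lineage, and deletion is checked from the junctions of the targeted genes. The labels write the added allele as Mycl in the sample titles and as Myc in the column names, and the junctions described next place a change at Myc. The series also has a batch 2 group labelled knockout (Vav1Cre+Rxrabfl/fl, no Myc allele), and in batch 1 LT-HSC of floxed controls without Cre (Rxrabfl/fl) and of knockouts, each with 3 libraries. Cells were sorted from bone marrow of pooled animals after lineage depletion, and sequencing followed amplification from 5 ng of total RNA. The sources used here do not give age or strain. Because animals were pooled, the p-values measure the spread between pooled samples.

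Retinoid X receptors are nuclear receptors that bind DNA mostly as the shared partner of other receptors, among them the retinoic acid receptors, the liver X receptors (LXR, cholesterol sensors) and the PPARs (fatty acid sensors). Without ligand many of these pairs keep their targets low, and ligand turns them to activation. Myc is a transcription factor that pairs with Max on E-box sequences and raises genes of ribosome building, translation, metabolism and the cell cycle, and in blood stem cells its level is tied to the balance of self-renewal and differentiation.

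Levels are given as deposited TPM, a level per transcript length. TPM are scaled to a fixed total in each library, but the deposited values did not sum to the same total in every library, as given below. Differences are given as log2 changes of TPM + 1, Myc allele minus Cre control, with the standard error (SE) and the Benjamini-Hochberg adjusted p of limma over all 13445 genes tested, and "rose" or "fell" is used where that p was under 0.05. "Rescaled" marks the same fit after each library was divided by a median-of-ratios size factor.

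The targeted genes were examined first. Rxrb, one of the receptors to be deleted (ENSMUSG00000039656, chromosome 17, 34031812 to 34038403), stood at 15.1, 16.0 and 14.5 TPM in Cre controls 4, 5 and 6 and at 6.4, 8.59 and 8.88 TPM in Myc allele libraries 1, 2 and 3. Every Myc allele library lay below every control, with means of 7.96 ± 1.36 and 15.2 ± 0.765 TPM (SD, n = 3 each; exact two-sided permutation p = 0.1, the smallest that 3 against 3 allows). Rxra (ENSMUSG00000015846, chromosome 2, 27676445 to 27763319) stood at 4.14, 4.85 and 4.58 TPM in the controls and at 4.08, 3.09 and 2.13 TPM in the Myc allele libraries. These groups did not overlap either, although Myc allele library 1 lay just under the lowest control. Over all genes neither passed the test (limma adjusted p = 0.503 for Rxrb and 0.644 for Rxra). Rxrg, the other member of the family, was at 0.0951 TPM or less in all 6 libraries.

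Whole-gene TPM can miss the loss of an exon, so the junctions of the targeted genes were read from the deposited PSI (percent spliced in, the fraction of reads on a junction against its competitors, from 0 to 1). At Rxra, the exon-skipping junction (chromosome 2, 27741203 to 27748612) stood at a PSI of 0.647, 0 and 1 in Myc allele libraries 1, 2 and 3 and of 0 in all 3 Cre controls. The competing junction into that exon (27741203 to 27741764) stood at 0.185, 1 and 0 in the Myc allele libraries and of 1 in the controls. Library 3 therefore showed only the skipping form, library 1 mostly, and library 2 only the form of the controls. The 1 batch 1 knockout library with a value stood at 0.938 for the skipping junction, and floxed controls at 0, 0.1 and 0.

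Myc (ENSMUSG00000022346, chromosome 15, 61985341 to 61990361) stood at 141, 143 and 140 TPM in Cre controls and at 130, 86.9 and 57.6 TPM in Myc allele libraries 1, 2 and 3. Each Myc allele library lay below the controls, by a small margin in library 1 and most in library 3, with a log2 change of -0.70 (SE 0.28, limma adjusted p = 0.503). A Myc junction (61988278 to 61989346) stood at a PSI of 0.761, 1 and 0.736 in the Myc allele libraries and of 0.997, 0.995 and 0.999 in Cre controls. Its competitor runs from 61985951 to 61992777, so it ends beyond the annotated end of the gene. A further Myc junction (61985951 to 61987507) stood at a PSI of 0.464, 0.707 and 0.411 in the Myc allele libraries and of 0.848, 0.820 and 0.823 in Cre controls. Here library 2 also lay below the Cre controls, while floxed LT-HSC controls of batch 1 stood at 0.752 to 0.7885. The competing junction (61985951 to 61987510) stood at 0.108, 0.293 and 0.0530 in the Myc allele libraries and at 0.152, 0.180 and 0.177 in Cre controls. At that competing junction library 2 lay above the Cre controls, and libraries 1 and 3 below them. Mycl, the gene named in the titles, was at 0.197 TPM or less in all 6 libraries, a level too low to show a change. Mycn, the third gene of the family, ranged more widely within the Myc allele group than between groups, at 89.9, 26.7 and 26.0 TPM against 46.5, 51.5 and 34.8 TPM.

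**Figure D1:**
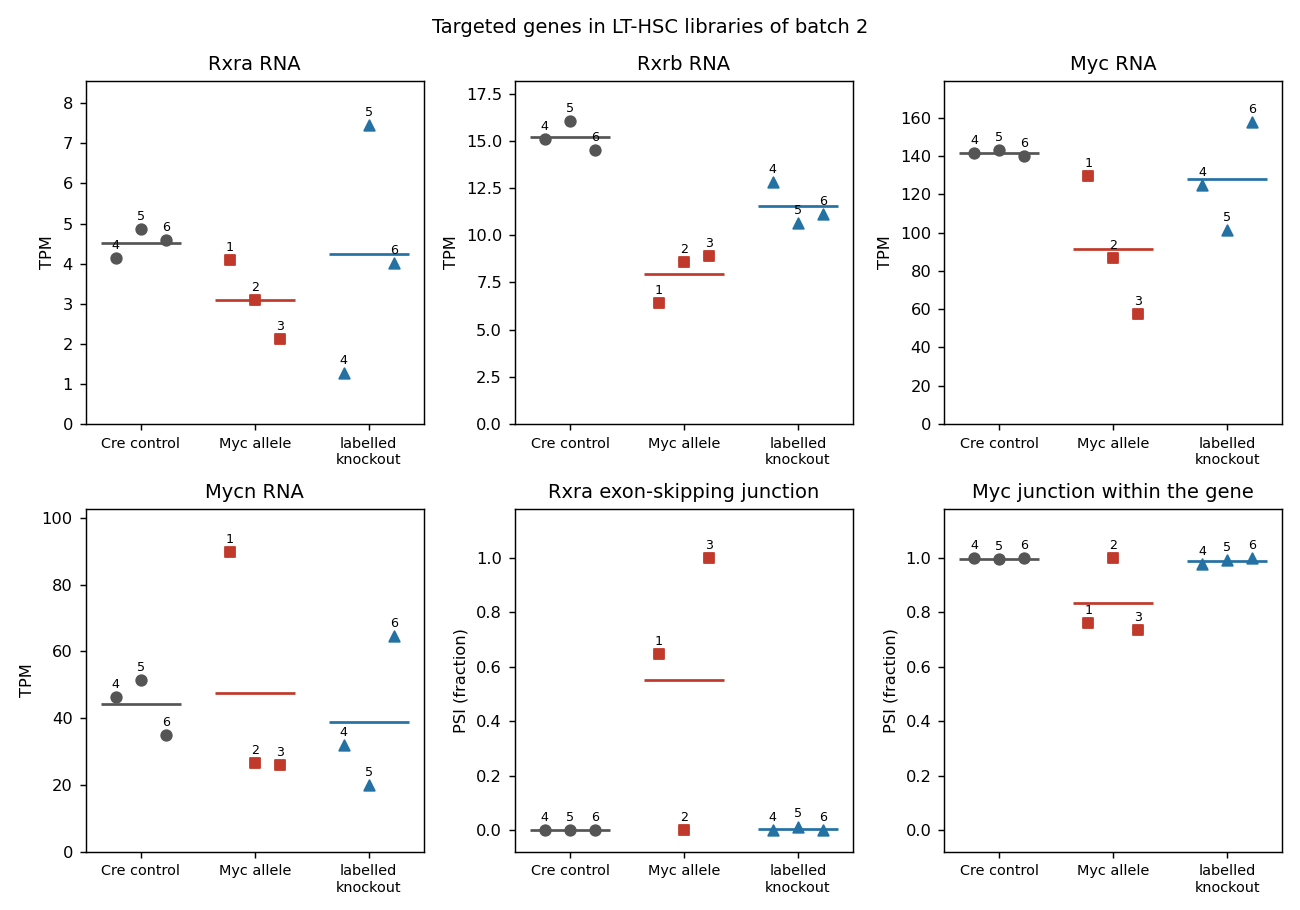
TPM of Rxra, Rxrb, Myc and Mycn and PSI of 1 Rxra and 1 Myc junction in the 9 LT-HSC libraries of batch 2, with points for libraries (numbered by replicate) and lines for group means. Rxrb is lower in all 3 Myc allele libraries than in any Cre control, and Myc allele library 2 has the junction values of the controls at both junctions drawn.

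The library labelled Myc allele replicate 2 thus had the values of the controls at the Rxra junctions and at 1 Myc junction. Of the competing Myc junctions from 61985951, this library lay below the controls at the one to 61987507 and above them at the one to 61987510. Counts of called genes and splice events, and the changes of Ccl3, Olfr632, Xlr4a and Myc, are also given without this library. List medians and most other values include it. The 3 Myc allele libraries also differed among themselves more than the controls did. Across genes the controls correlated with each other at a Pearson r of 0.976 to 0.984, Myc allele library 1 with the controls at 0.960 to 0.969, library 2 at 0.869 to 0.879 and library 3 at 0.903 to 0.911. The Myc allele libraries correlated with each other at only 0.866 to 0.899. TPM summed to 892064 to 911503 in the controls and to 918942, 803804 and 691094 in Myc allele libraries 1, 2 and 3. A single gene identifier stood at 269518, 234845 and 220364 TPM in the controls and at 305309, 157097 and 105545 TPM in the Myc allele libraries. Medians of single libraries on deposited TPM include these differences in total. Mean PSI was also taken over the 9422 intron retention events read at the exon-intron boundary. It was 0.0342 to 0.0435 in the controls and 0.0352, 0.128 and 0.127 in the Myc allele libraries, with a median of 0 in each library. TPM keep no depth, so the reads behind a value are unknown. Tsix, which lies opposite Xist on the X chromosome, was at 14.3, 19.3 and 0.107 TPM in the controls and at 17.2, 51.9 and 0.178 TPM in the Myc allele libraries. Ddx3y, on the Y chromosome, stood at 1.66, 1.81 and 11 TPM against 0.0201, 0.0428 and 11.4 TPM. Sex-linked genes therefore differed between libraries within both groups, and their part in the results was not tested.

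Stem cell genes were present in both groups. Slamf1, which encodes the stem cell surface protein CD150, stood at 26.5, 25.2 and 23.9 TPM in the controls and at 27.9, 14.5 and 25.8 TPM in the Myc allele libraries, and Mecom, a stem cell transcription factor, at 113, 114 and 107 TPM against 120, 146 and 89.3 TPM. Among defining genes of mature cells, the T cell gene Cd3e reached at most 0.0214 TPM in the 6 libraries, the monocyte gene Csf1r 0.270 TPM and the macrophage gene Adgre1 0.00929 TPM, while other markers of these cells were expressed. Of 14 listed B cell markers, 8 were below 1 TPM in all 6 libraries, of 17 T and NK cell markers 8, of 15 neutrophil markers 9, of 20 monocyte, macrophage and dendritic cell markers 9, and of 16 erythroid markers 0. The summed TPM of the monocyte, macrophage and dendritic cell list was 289, 421 and 374 in the controls and 221, 191 and 202 in the Myc allele libraries, and did not overlap. H2-Aa, which presents antigen, made up much of it, at 109, 160 and 152 TPM against 77.7, 69.0 and 64.5 TPM. The summed list of mast cells, basophils and eosinophils was also lower without overlap, at 17.7, 26.5 and 18.9 TPM against 13.0, 3.13 and 9.03 TPM. Summed B cell, T and NK cell, neutrophil, erythroid and endothelial lists overlapped between the groups. The B cell sum was 137.5 TPM in Cre control 4 and 16.2 to 74.1 TPM in the other 5 libraries, and the neutrophil sum 51.5 TPM in Cre control 6 and 2.91 to 14.5 TPM in the others. In bulk samples fewer cells of a type and less RNA per cell cannot be told apart, and the part of these cells in the results was not tested.

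Of the 13445 genes tested, 4 rose (0.0298%) and 10 fell (0.0744%) in the Myc allele group, 0.104% in all, and 1267 had an unadjusted p under 0.05. After rescaling 4 rose (0.0298%) and 7 fell (0.0521%), 0.0818% in all, of which 10 were the same genes in the same direction. The median log2 change over all genes was -0.21 on deposited TPM and -0.00 rescaled, and 68.6% of genes lay below 0 on deposited TPM, so values are best read against that shift. Without Myc allele library 2, 4 rose (0.0304%) and 11 fell (0.0836%), 0.114% in all, 12 of them among the 14. Without library 1, the one closest to the controls, 267 rose (2.01%) and 706 fell (5.31%), 7.32% of 13298 genes. With any 1 Cre control left out the number called was 5 to 7.

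Ccl3, a chemokine that draws in myeloid cells and restrains the proliferation of blood progenitors (ENSMUSG00000000982, chromosome 11, 83647843 to 83649378), fell. It stood at 12.9, 15.7 and 21.0 TPM in Cre controls and at 1.08, 0.8 and 1.75 TPM in Myc allele libraries 1, 2 and 3, a mean of 1.21 ± 0.489 against 16.5 ± 4.13 TPM (SD, n = 3 each). The groups were far apart and all 3 Myc allele libraries were alike. The log2 change was -2.98 (SE 0.41, limma adjusted p = 0.00764), and it was -2.85 (limma adjusted p = 0.0317) without Myc allele library 2. Rescaled it was -2.76 with a limma adjusted p of 0.072, which misses the threshold. The call held in 7 of the 13 alternative settings, with a limma adjusted p up to 0.2004. It was also lost without Cre control 5 or 6 and with a pseudocount of 0.1. Leaving out the filter on low values, or rescaling without Myc allele library 2, lost it too. In the libraries labelled knockout, which were compared with the same controls, Ccl3 stood at 0.357, 2.92 and 2.23 TPM. In batch 1, floxed controls stood at 20.2, 3.36 and 14.8 TPM and knockouts at 7.07, 5.13 and 6.82 TPM, so those groups overlapped.

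The 250 bases before the start of Ccl3 are shown because they hold the hexamer AGGTCA, the core element that receptor pairs with RXR recognise (chr11:83649379-83649628, minus strand, GRCm38.p6, RefSeq promoter table, AGGTCA in capitals).
Ccl3: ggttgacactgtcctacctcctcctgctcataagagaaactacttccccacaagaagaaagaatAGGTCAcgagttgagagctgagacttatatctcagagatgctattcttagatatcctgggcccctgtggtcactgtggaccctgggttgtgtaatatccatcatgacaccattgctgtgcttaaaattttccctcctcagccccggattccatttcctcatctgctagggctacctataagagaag
This letter match is a description of the sequence and no test of binding. AGGTCA, read on both strands, occurred in the promoters (250 bases before the start and 50 after it) of 12.3% of the 9680 tested genes with an entry. It occurred in 13.1% of those lower in all Myc allele libraries and in 14.2% of those higher. The E-box CACGTG that Myc and Max bind occurred in 10.3% of all tested, 11.0% of the lower and 7.08% of the higher.

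Olfr632, an olfactory receptor gene (ENSMUSG00000073938, chromosome 7, 103937382 to 103938335), rose. It stood at 0.790, 1.46 and 0.780 TPM in Cre controls and at 11, 18.1 and 9.50 TPM in the Myc allele libraries, with a log2 change of 2.75 (SE 0.36, limma adjusted p = 0.00485) and 2.50 (limma adjusted p = 0.0179) without library 2. The group means were 12.9 ± 4.57 and 1.01 ± 0.392 TPM (SD, n = 3 each). Libraries labelled knockout were lower than every Myc allele library, at 3.36, 1.42 and 1.90 TPM. In batch 1, which shares no library with this comparison, it stood at 1.13, 1.27 and 1.52 TPM in floxed controls and at 9.01, 13.6 and 16.8 TPM in knockouts, and rose there too (log2 change 2.58, limma adjusted p = 2.07e-05). Of the 8 called genes tested in both, 4 had the same direction in batch 1, and Olfr632 was the only one called in both.

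Hist1h4m, a gene for the core histone H4 (ENSMUSG00000069306), was listed at 0 in all Cre controls and in all 6 LT-HSC libraries of batch 1, and stood at 4.88, 7.35 and 2.82 TPM in the Myc allele libraries (limma adjusted p = 0.0136) and at 0.917, 0.639 and 1.73 TPM in libraries labelled knockout. The call was lost when any 1 Cre control was left out (limma adjusted p up to 0.142), and it held in 7 of the 12 alternative settings that tested the gene. It was the 1 called gene whose Myc allele values lay outside the range of every other LT-HSC library. This is a description, since the gene reached the level needed for testing only through the Myc allele libraries. Histone H4 genes encode the same protein from near-identical sequences, so the split of reads among them is uncertain.

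Xlr4a, an X-linked gene of the lymphocyte-regulated family (ENSMUSG00000079845), fell from 6.26, 7.92 and 12.2 TPM to 1.35, 0 and 1.15 TPM, with a log2 change of -2.47 (SE 0.41, limma adjusted p = 0.0348). The groups did not overlap, but it passed in only 1 of 13 alternative settings, and its limma adjusted p was 0.173 rescaled and 0.0814 without Myc allele library 2. The family has close copies on the X chromosome, so its reads may be shared.

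The remaining 10 called genes were copies of other genes or predicted loci. Rps3a2 and Rps3a3 are processed copies of Rps3a1, which encodes a protein of the small ribosomal subunit. Rps3a2 (ENSMUSG00000062611, chromosome 14, 88122952 to 88123833) stood at 664, 1219 and 315 TPM in Cre controls and at 3.03, 3.10 and 2.42 TPM in the Myc allele libraries. Rps3a3 (ENSMUSG00000059751, chromosome 13, 108670580 to 108671443) stood at 437, 782 and 234 TPM against 1.64, 1.21 and 1.38 TPM. Their log2 changes were -7.37 and -7.49 (limma adjusted p = 3.44e-07 and 3.4e-07).

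The source gene did not pass the test. Rps3a1 stood at 1427, 139 and 2142 TPM in Cre controls and at 2262, 2294 and 1803 TPM in the Myc allele libraries. The sum over the 3 genes was 2528, 2140 and 2691 TPM in the controls and 2267, 2299 and 1807 TPM in the Myc allele libraries, and these sums overlapped, at 2453 ± 283 and 2124 ± 275 TPM (SD, n = 3 each). The split of reads among such copies is uncertain, so the fall of Rps3a2 and Rps3a3 is not shown to be a fall of ribosomal protein S3a RNA.

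Eno1b, a copy of the glycolytic enolase gene Eno1, likewise stood at 44.2, 40.3 and 10.1 TPM in the controls and at 0, 0 and 0.0642 TPM in the Myc allele libraries (limma adjusted p = 0.000216). Eno1 and Eno1b together stood at 112, 110 and 105 TPM in the controls and at 111, 45.2 and 43.3 TPM in the Myc allele libraries. By that sum library 1 stood among the controls and libraries 2 and 3 below them.

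The predicted loci, named because they complete the set of called genes, were Gm13841, Gm8730, Gm8116, Gm13736 and Gm4735, which fell, and Gm13443 and Gm8810, which rose. Gm13841 stood at 1479, 287 and 387 TPM in the controls and at 0.265, 0.629 and 0.325 TPM in the Myc allele libraries. Gm13443 was listed at 0 in the controls and stood at 23.7, 21.4 and 9.96 TPM in the Myc allele libraries, and Gm8810 at 0 against 4.09, 8.96 and 7.45 TPM. Gm8810 lies 2.03 Mb from Rxrb and was the only called gene within 10 Mb of Rxra, Rxrb or Myc, of 12 with a position, while 4.6% of tested genes lay in those windows.

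The called genes were also read in the other LT-HSC groups. For 11 of the 14 the Cre controls lay outside the range of all 12 other LT-HSC libraries of the series, floxed controls of batch 1 included. This is a description, since the genes were selected for a difference from the Cre controls, and some of them reached the level needed for testing only through those controls. Gm13443 stood at 11.2 to 17.4 TPM in the floxed controls and at 13.0 to 22.0 TPM in libraries labelled knockout. Rps3a2 stood at 1.58 to 2.95 TPM in floxed controls. The transhydrogenase Nnt, a mitochondrial enzyme whose gene is partly deleted in some C57BL/6 substrains, was chosen after its values were seen. It stood at 24.7, 26.5 and 20.7 TPM in the Cre controls and at 11.6, 7.28 and 6.07 TPM in the Myc allele libraries (limma adjusted p = 0.282). In batch 1 it stood at 6.69 to 8.56 TPM in floxed controls and at 11.3 to 17.3 TPM in knockouts, so its level also differed between the groups of that batch. Whether strain background plays a part in the called genes was not tested.

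**Figure D2:**
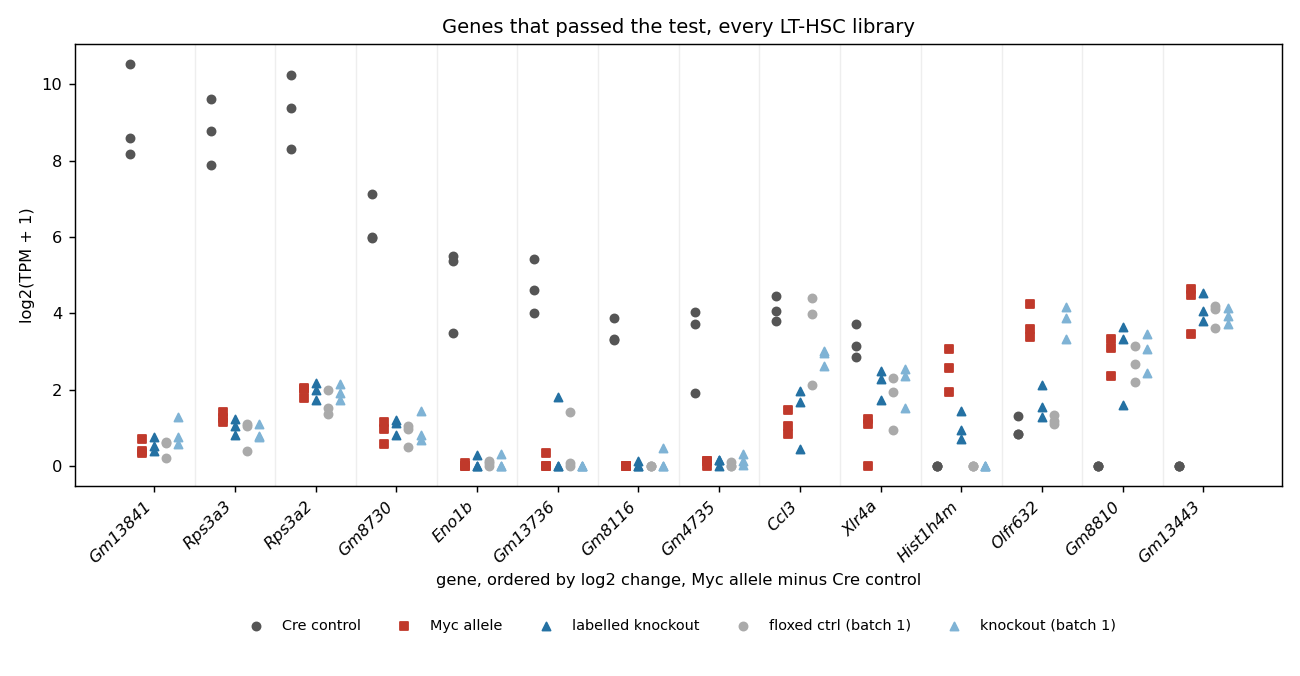
Level as log2(TPM + 1) of the 14 called genes in all 15 LT-HSC libraries, with a point per library and a colour and shape per group. For 11 genes the Cre controls stand apart from all other groups, while Olfr632 is high in the Myc allele libraries and in the batch 1 knockouts and the batch 1 floxed controls and knockouts overlap for Ccl3.

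Splicing was compared over 28309 events with a PSI in every library of batch 2. By limma, 9 events in 6 genes changed, with adjusted p under 0.05 and mean PSI at least 0.1 apart (0.0318% called), 5 higher and 4 lower in the Myc allele group, and 1108 had an unadjusted p under 0.05. Intron retention made up 6 of the 9, alternative 5′ splice sites 2 and cassette exons 1. Without Myc allele library 2 the count was 47, the 9 included. The calls depended on the other libraries: without Myc allele library 3, 4 events were called, 2 of them among the 9, and without Cre control 4, 5 or 6 the shared events were 5, 4 and 6. With only the 6 libraries compared, 8 were called, 4 of them among the 9. Psd4 missed the threshold without Myc allele library 3, without Cre control 5 and with the 6 libraries only, and Rpf1 missed it in these settings and without Cre control 4 or 6.

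Psd4, an exchange factor for ARF6, a small GTPase of membrane traffic, showed the largest difference. The junction that splices out 1 of its introns (chromosome 2, 24395040 to 24396305) had a PSI of 0.999, 0.988 and 1 in the Cre controls and of 0.0227, 0.244 and 0.0161 in the Myc allele libraries, a difference of -0.90 (SE 0.059, limma adjusted p = 0.0131). It was 0 in all 3 floxed controls of batch 1, so the Cre controls again stood apart. Psd4 RNA stood at 49.8, 52.0 and 51.6 TPM against 20.6, 27.6 and 17.6 TPM (limma adjusted p = 0.173). The gene lies 3.27 Mb from Rxra.

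Arglu1, a splicing and nuclear receptor coactivator known for a retained intron that regulates its own level, had a retention PSI of 0.825, 0.858 and 0.923 in the Cre controls and of 0 in all Myc allele libraries (difference -0.87, SE 0.023, limma adjusted p = 0.000177). Across the other LT-HSC libraries the value was either 0 or at least 0.882, with floxed controls at 0.882, 0 and 0, so it switched between libraries within a group of batch 1. Ensa, a phosphatase inhibitor of the cell cycle, fell from a retention PSI of 0.134, 0.119 and 0.152 to 0 (difference -0.13, limma adjusted p = 0.0125). Ensa retention was also 0 in every library labelled knockout and every LT-HSC knockout of batch 1, while floxed LT-HSC controls stood at 0.273, 0.207 and 0.

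Cspp1, a gene of the spindle and cilium, had a cassette exon junction at a PSI of 0.875, 0.878 and 0.894 in the controls and of 1 in the Myc allele libraries (difference 0.12, limma adjusted p = 0.0159). Libraries labelled knockout stood at 1, 1 and 0.978 for this junction. In batch 1, floxed LT-HSC controls stood at 0.921, 0.956 and 1 and knockouts at 0.911, 0.943 and 0.767. Rpf1, a factor of large ribosomal subunit assembly, had a retention PSI of 0 in the controls and of 0.184, 0.259 and 0.2 in the Myc allele libraries (difference 0.21, limma adjusted p = 0.0401). It was the only called event at which the Myc allele group lay outside every other LT-HSC library, with 0 in libraries labelled knockout and 0.0861 to 0.176 in floxed controls.

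**Figure D3:**
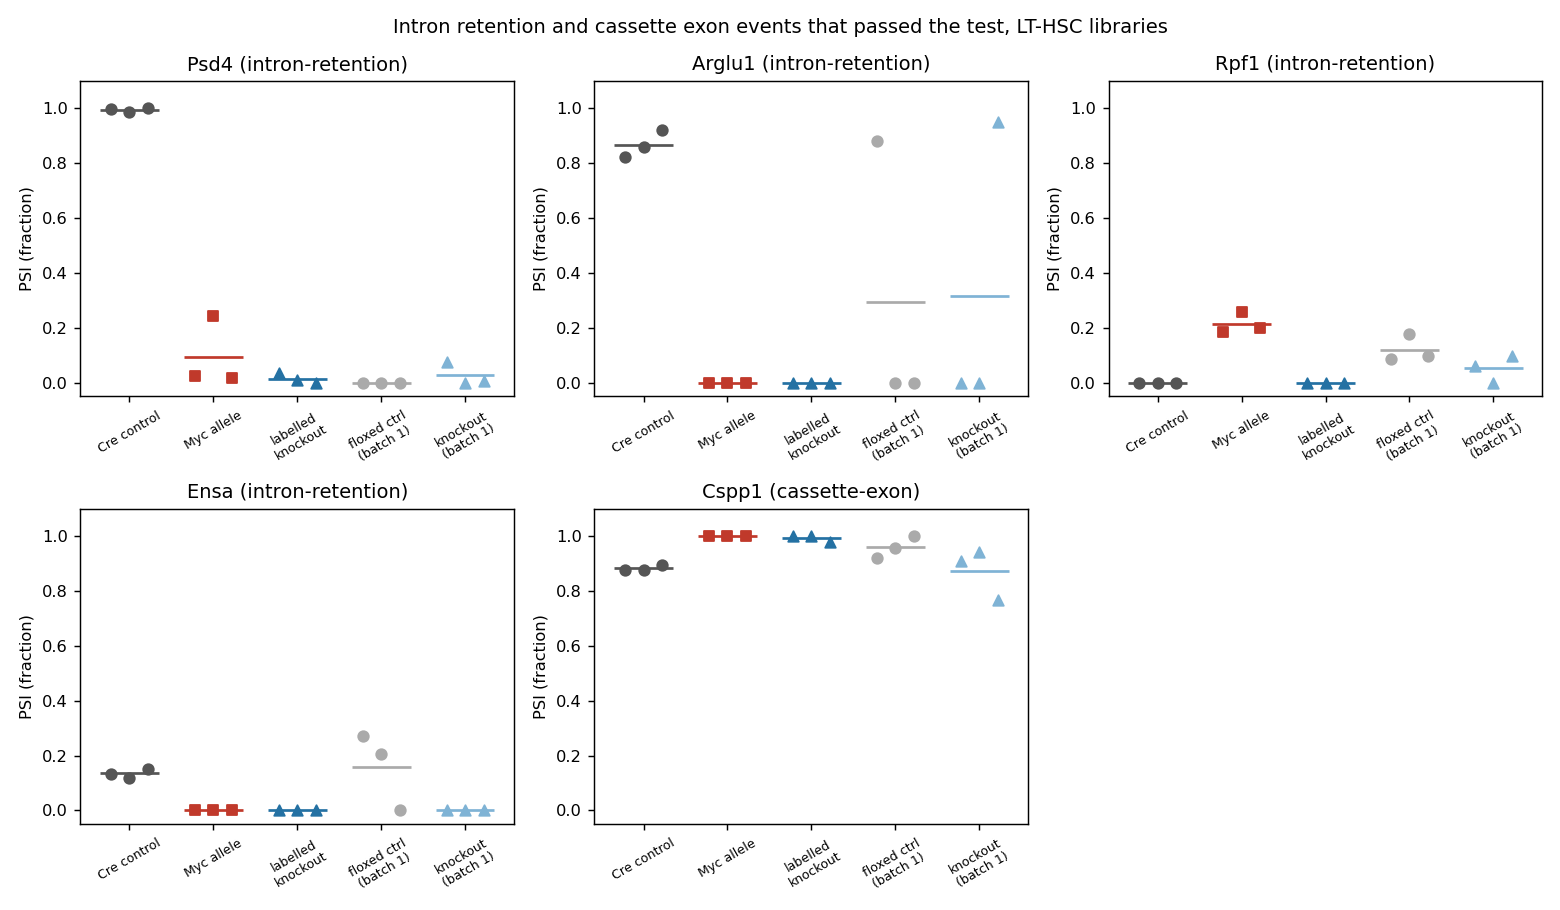
PSI (fraction, 0 to 1) of the called intron retention or cassette exon event with the largest difference in each of 5 genes, in all 15 LT-HSC libraries, with points for libraries and lines for group means. In Psd4 the Cre controls stand apart from every other group, in Arglu1 the batch 1 libraries fall to either end, and in Rpf1 the Myc allele group is the highest.

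Gene lists were described by their counts and medians beside those of all genes tested. No member of any list was called except Ccl3 in the NF-kB list, so the levels below are values and not calls. Without Myc allele library 1, where 7.32% of all genes were called and 5.31% fell, members of many lists fell. They included 12 of 40 genes of G2 and M phase, 7 of 23 of glycolysis and 12 of 52 of oxidative phosphorylation. They also included 7 of 39 translation factors, 5 of 15 erythroid markers and 4 of 38 Myc targets. Near or below the share of all genes were ribosome biogenesis (3 of 49), LT-HSC genes (2 of 44) and p53 targets (0 of 22). Libraries 2 and 3, which that setting keeps, had a mean retention PSI of 0.128 and 0.127, against 0.0342 to 0.0435 in the controls. Their TPM sums were also lower, and library 2 had the Rxra junctions of the controls. The part of these traits in the calls without library 1 was not tested. Without library 2 or without library 3, no member of these lists was called. Without library 1 Myc itself had a log2 change of -0.99 (limma adjusted p = 0.04). Its log2 change was -0.70 without library 2 and -0.41 without library 3 (limma adjusted p = 0.8025 and 0.758). As a background, 11.9% of all genes were lower and 3.91% higher in all 3 Myc allele libraries than in any Cre control (8.66% and 7.11% rescaled), and in Myc allele libraries 1, 2 and 3 the median gene stood 0.03, -0.28 and -0.42 from the control mean on the log2 scale.

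Of 38 Myc target genes 4 were lower in all Myc allele libraries and 0 higher, with a median log2 change of -0.41 (-0.17 rescaled). By library the medians were -0.05, -0.30 and -0.82, so library 1 stood near the controls and library 3 lowest, the order that the median of all genes also had. The share of members lower in all 3 libraries was near that of all genes. Nolc1, a nucleolar assembly protein, stood at 35.4, 33.8 and 36.6 TPM in the controls and at 29.7, 17.1 and 13.1 TPM in the Myc allele libraries (log2 change -0.87, SE 0.31, limma adjusted p = 0.503). Fbl, the methyltransferase of ribosomal RNA, stood at 183, 160 and 183 TPM against 170, 93.3 and 70.8 TPM. Both were lowest in library 3, and Fbl of library 1 lay within the controls.

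The ribosome biogenesis list (49 genes, 8 lower in all Myc allele libraries) had a median of -0.39 (-0.15 rescaled), and the list of translation factors (39 genes, 7 lower) one of -0.36 (-0.11 rescaled). Cytosolic ribosomal proteins were lower in all Myc allele libraries for 25 of 74 genes on deposited TPM and for 9 after rescaling, and their median turned from -0.20 to 0.04. Rps2 stood at 2867, 2854 and 2683 TPM in the controls and at 2420, 1679 and 1280 TPM in the Myc allele libraries. The direction for this family therefore depends on the scale, and its members have many processed copies.

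The partners of Myc were examined as a separate list of 13 genes with a median of -0.28 (-0.08 rescaled). Bin1, which binds Myc and restrains it, stood at 3.25, 4.25 and 3.54 TPM in the controls and at 2.48, 0.551 and 0.878 TPM in the Myc allele libraries. Max stood at 60.5, 64.3 and 59.5 TPM against 70.4, 38.2 and 27.7 TPM, above the controls in library 1 and below them in libraries 2 and 3.

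Cell cycle lists had the same order of libraries. Genes of G2 and M phase (40 genes, 8 lower in all Myc allele libraries, 0 higher) had a median of -0.61 (-0.38 rescaled) and library medians of -0.05, -0.69 and -1.16. Cdc20, an activator of the anaphase-promoting complex, stood at 31.8, 23.7 and 31.8 TPM in the controls and at 28.5, 12.4 and 9.03 TPM in the Myc allele libraries. S phase genes (42 genes, 7 lower) had a median of -0.49 (-0.27 rescaled), and Cdt1, which licenses replication origins, stood at 19.8, 17.7 and 19.8 TPM against 14.9, 6.62 and 5.81 TPM. Library 1 overlapped the controls for Cdc20 and lay below them for Cdt1.

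Among metabolic lists, glycolysis (23 genes, 7 lower, 1 higher) had a median of -0.61 (-0.39 rescaled). Hk2, the hexokinase that traps glucose in the cell, was the 1 higher gene, at 32.6, 24.5 and 31.4 TPM in the controls and at 49.4, 50.2 and 49.0 TPM in the Myc allele libraries (log2 change 0.74, SE 0.23, limma adjusted p = 0.503). The 3 Myc allele libraries were alike for it, unlike for Pgk1, a later enzyme of the pathway, at 115, 104 and 105 TPM against 86.3, 60.1 and 47.3 TPM. Oxidative phosphorylation (52 genes, 14 lower, 0 higher) had a median of -0.33 (-0.10 rescaled). Nucleotide synthesis (22 genes, 4 lower, 0 higher) had a median of -0.54 (-0.31 rescaled).

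The pathways of RXR partners were taken by receptor. Of 10 partner receptor genes tested, 2 were higher and 1 lower in all Myc allele libraries, with a median of 0.11 (0.33 rescaled). Nr4a2, an orphan receptor induced within minutes of stimulation, stood at 17.8, 22.4 and 22.6 TPM in the controls and at 27.7, 58.7 and 233 TPM in the Myc allele libraries. The groups did not overlap, but the value of library 3 was several times that of the others, and the limma adjusted p was 0.503. Ppard, the PPAR of broad expression, 5.73 Mb from Rxrb, stood at 3.41, 3.99 and 2.44 TPM against 6.6, 11.2 and 4.38 TPM. Rarb, itself a target of retinoic acid, stood at 3.88, 3.44 and 3.26 TPM against 1.45, 1.29 and 2.18 TPM.

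The retinoic acid list (11 genes, 3 lower, 0 higher) had a median of -0.42 (-0.18 rescaled). Cyp26b1, which breaks down retinoic acid, stood at 3.42, 3.84 and 1.25 TPM in the controls and at 0.127, 0 and 0.484 TPM in the Myc allele libraries (log2 change -1.61, SE 0.44, limma adjusted p = 0.413). In batch 1 it stood at 3.43, 3.47 and 1.13 TPM in floxed controls and at 0.0434, 0.0277 and 0.226 TPM in knockouts and fell there (log2 change -1.67, limma adjusted p = 0.00211). Here the 3 Myc allele libraries, library 2 included, were all at the low level, without a call.

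Of 15 LXR and lipid target genes 6 were lower in all Myc allele libraries and 0 higher, with a median of -0.32 (-0.08 rescaled). Abcg1, which exports cholesterol and lies 2.91 Mb from Rxrb, stood at 23.4, 23.4 and 22.9 TPM in the controls and at 15.5, 10.9 and 9.21 TPM in the Myc allele libraries (log2 change -0.94, SE 0.32, limma adjusted p = 0.503). Scd1, which desaturates fatty acids, stood at 3.22, 1.94 and 1.12 TPM against 0.160, 0.00597 and 0.193 TPM. Both were lower in each Myc allele library than in any control, also after rescaling.

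The list of PPAR targets and fatty acid oxidation (21 genes, 5 lower, 0 higher) had a median of -0.49 (-0.26 rescaled). Cpt1a, which brings fatty acids into mitochondria, stood at 41.4, 50.5 and 54.0 TPM in the controls and at 36.5, 16.4 and 18.9 TPM in the Myc allele libraries. Of 23 genes of cholesterol synthesis 9 were lower in all Myc allele libraries and 0 higher, with a median of -0.61 (-0.39 rescaled), and a median of -0.29 in library 1. Insig1, which holds back the synthesis of cholesterol, stood at 24.0, 21.1 and 15.6 TPM against 13.2, 6.89 and 7.93 TPM.

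**Figure D4:**
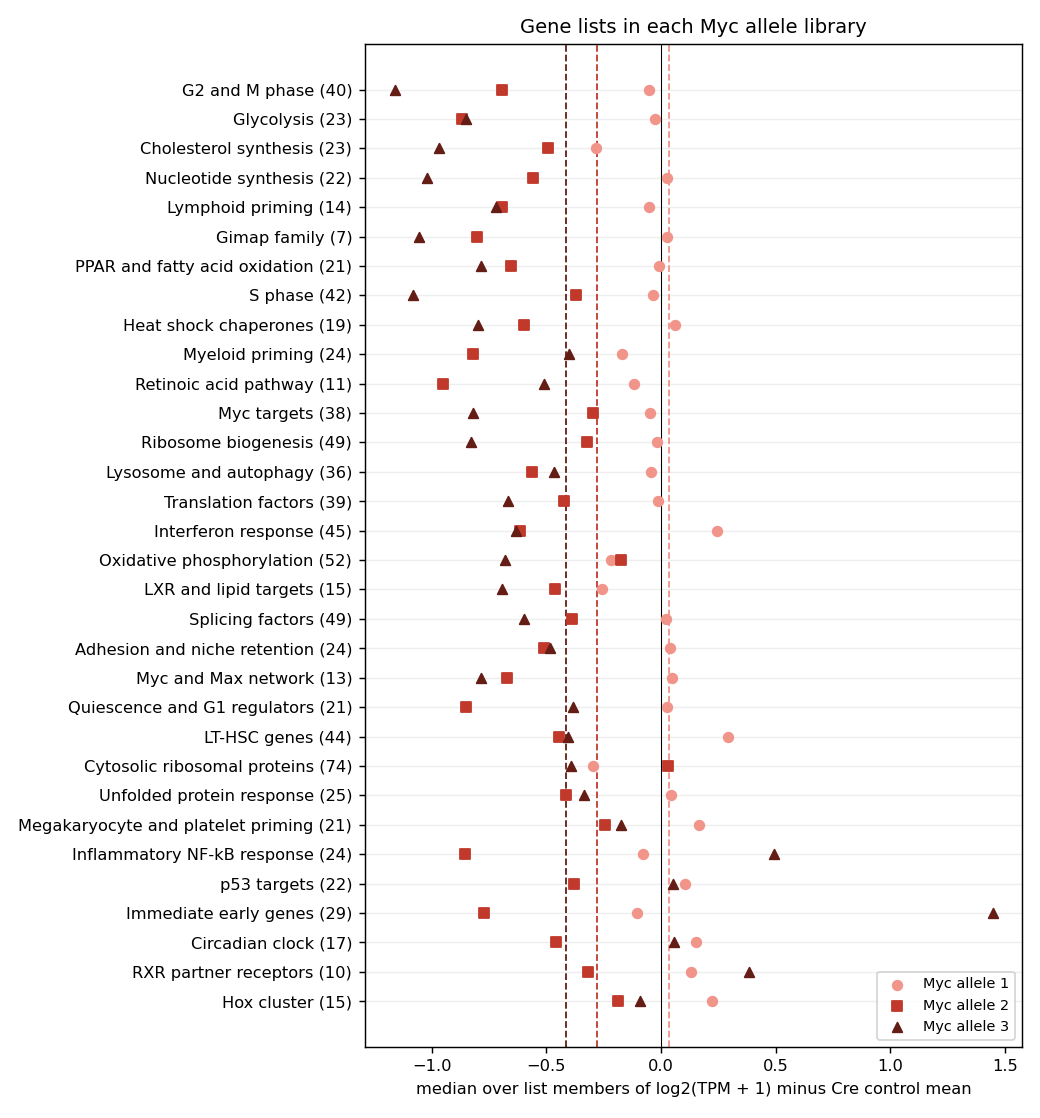
Median over the tested members (number in brackets) of each list of log2(TPM + 1) minus the Cre control mean, for each Myc allele library, with dashed lines for the median of all genes in that library. Library 1 stays near 0 for most lists while libraries 2 and 3 lie lower, and immediate early genes separate library 3, at 1.45, from library 2, at -0.77.

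Stem cell genes were described next. Of 44 LT-HSC genes 1 was higher and 4 were lower in all Myc allele libraries, with a median of -0.21 (0.03 rescaled), the value of all genes. Ly6a, which encodes the stem cell surface protein Sca-1, stood at 118, 190 and 131 TPM in the controls and at 94.7, 43.3 and 54.1 TPM in the Myc allele libraries (log2 change -1.23, SE 0.39, limma adjusted p = 0.503). Fgd5, a marker of the most primitive stem cells, was the higher one, at 12.1, 12.3 and 12.2 TPM against 22.4, 13.6 and 14.2 TPM.

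Priming genes of the mature lineages are expressed at low levels in stem cells. The myeloid list (24 genes, 4 lower, 1 higher) had a median of -0.42 and the lymphoid list (14 genes, 4 lower, 0 higher) one of -0.53, or -0.18 and -0.30 rescaled. Nkg7, a protein of cytotoxic granules, stood at 31.4, 51.9 and 75.3 TPM in the controls and at 18.2, 16.1 and 8.86 TPM in the Myc allele libraries, with a log2 change of -1.78 (SE 0.41, limma adjusted p = 0.294). The groups did not overlap.

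Erythroid markers had the lowest median of all lists, -0.87 (-0.70 rescaled), with 4 of 15 lower in all Myc allele libraries. Gata1, the erythroid and megakaryocyte transcription factor, stood at 11.2, 13.8 and 13.5 TPM in the controls and at 8.11, 2.77 and 3.37 TPM in the Myc allele libraries. Hbb-bs, a beta globin, stood at 15.6, 21.3 and 30.02 TPM against 8.16, 4.37 and 9.00 TPM. The summed TPM of the list was 576 to 721 in the controls and 728, 388 and 322 in the Myc allele libraries.

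Myc allele library 3 stood apart for acute response genes. Immediate early genes had library medians of -0.10, -0.77 and 1.45, and Cdkn1a, a cell cycle inhibitor under p53, stood at 28.04, 36.8 and 46.7 TPM in the controls and at 76.0, 14.6 and 814 TPM in the Myc allele libraries. Without library 3 the log2 change of Cdkn1a turned from 1.41 to -0.11. Other p53 targets did not share the size of that value, with a list median of 0.05 in library 3.

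The Myc allele group was also set against the libraries labelled knockout, from which it differs by the Myc-family allele per the labels. By limma 0 of 13445 genes were called (0.0%), with 547 at an unadjusted p under 0.05 on deposited TPM and 0 called and 746 rescaled. That labelled group had an Rxra skipping PSI of 0, 0.0127 and 0, so its Rxra junctions are those of the controls. Because both groups share the Cre controls, their changes are given only side by side. Myc stood at 125, 102 and 158 TPM in the labelled knockouts and at 130, 86.9 and 57.6 TPM in the Myc allele group, which overlapped. Rxrb stood at 12.8, 10.6 and 11.1 TPM against 6.4, 8.59 and 8.88 TPM, so every Myc allele library was the lower.

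In batch 1, RXR knockouts were compared with floxed controls in other libraries, made with a different kind of control. There 45.2% of genes were called on deposited TPM and 4.7% rescaled. The direction of change matched for 33.9% of 13215 genes on deposited TPM and for 62.1% rescaled, so the match depends on the scale. By the interaction term of a fit over all 15 LT-HSC libraries, the change differed between the 2 comparisons for 17 of 14806 genes (0.115% called), and for 11 rescaled (0.0743%). Without Myc allele library 2 it was 24. Both the kind of control and the batch differ between these comparisons, and they cannot be told apart from the Myc allele.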

How the data were processed

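TPM and PSI were measured in RNA of sorted LT-HSC, with groups, batches and replicate numbers as labelled. The deposited TPM per Ensembl gene were made by the authors with kallisto on mm10, per the submitters' processing notes, the transcript set and the summing to genes being not given in the sources used here. The deposited PSI, fractions of 0 to 1 per splice event, rest on STAR 2.6 and mm10 per the same notes, with an event caller and read minimum not given in the sources used here. TPM keep no depth, so no counting interval was computed and a change in 1 abundant RNA moves all others. The number of samples limits the precision. Symbols matched 27458 of 28987 gene identifiers (94.73%), and positions and the promoter are from RefSeq, GRCm38.p6, the assembly that mm10 names.

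The gene test was limma (version 3.58.1, R 4.3.3, trend on intensity) on log2(TPM + 1), where the added 1 TPM understates the changes of low genes. It covered genes reaching 1 TPM in 3 or more of the 9 batch 2 LT-HSC libraries. The 3 groups of batch 2 shared 1 estimate of spread. PSI was tested with limma for events with a value in all 9 libraries, called at adjusted p under 0.05 where mean PSI was at least 0.1 apart. The interaction with batch 1 came from a fit of all 15 LT-HSC libraries. Both procedures were tested on simulated data. Exact two-sided permutation tests served for the targeted genes. Python 3.11.15 with matplotlib 3.10.9 drew the figures.

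Named genes are Rxra, Rxrb, Myc, Mycl and Mycn. Added to them are up to 12 called genes per direction with the largest change that are neither predicted loci nor pseudogene symbols, do not overlap between groups and reach a mean of 5 TPM in 1 group, taken first from those also called rescaled. Up to 3 members of each list with the smallest adjusted p, and up to 10 called splice events, 1 per gene, complete the rule. Other genes named are called genes outside it, or were chosen after their values were seen. The samples compared and the 40 gene lists were chosen with earlier results of these data known, and a list is described by counts and medians with no test. Alternatives tried were other scalings, pseudocounts, filters and the omission of each library. Some list members were not matched to a symbol and are not analysed here. Some results are not reported here.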

Additional observations from a re-analysis of the deposited data

Results flagged for a closer look

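For 12 named genes the Myc allele comparison and the batch 1 knockout comparison differed by the interaction term of limma over 14806 genes. The values are the difference between the 2 log2 changes, Myc allele comparison minus batch 1. Most are copies or predicted loci at which the Cre controls stand apart from all other LT-HSC libraries. Among these Gm13841 differed by -8.99, Rps3a2 by -7.68, Rps3a3 by -7.53 and Gm8730 by -5.62. Eno1b differed by -4.79, Gm13736 by -4.06, Gm8116 by -3.65 and Gm4735 by -3.26. Gm13443 differed by 4.23. Their limma adjusted p ran from 5.58e-08 (Gm13841, Rps3a2, Rps3a3) to 0.0122 (Gm4735). These genes had already been called for a difference from the same Cre controls, so the interaction term gives them no independent support. Gm13841, Gm8730, Gm8116, Eno1b and Gm4735 were below the level needed for testing in batch 1.

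Hist1h4m differed by 2.52 (limma adjusted p = 0.00938), and was listed at 0 in all 6 LT-HSC libraries of batch 1, so this value repeats its change here. Nnt differed by -2.34 (limma adjusted p = 0.0255), with a log2 change of -1.46 here and 0.88 in batch 1. Psd4 differed by -1.97 (limma adjusted p = 0.0276), with -1.21 here and 0.76 in batch 1. After rescaling Nnt, Psd4, Gm13736 and Gm4735 no longer passed, at limma adjusted p of 0.091 for Nnt, 0.411 for Psd4, 0.172 for Gm13736 and 0.0671 for Gm4735. The genotype of the control and the batch differ together between the comparisons and cannot be told apart.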

How the results depend on the processing

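No paired analysis was possible because the Myc allele replicates are numbered 1 to 3 and the Cre controls 4 to 6. Leaving out 1 library at a time gave 5 to 973 called genes beside 14, the highest without Myc allele library 1 and the lowest without Cre control 6, and 4 to 434 splice events beside 9, the highest without Myc allele library 1 and the lowest without Myc allele library 3. Splice events called were 46 where 2 values per group sufficed. The difference from batch 1 was called for 11 genes rescaled, beside 17. Of the 14 called genes 4 passed in all 13 alternatives (Rps3a2, Rps3a3, Gm8730 and Gm13443) and Eno1b, Gm13841 and Gm8116 in the 10 that tested them, while 5 genes fell below the filter in some alternatives. Olfr632 missed the threshold without the filter on low values and without Cre control 4 or 6. Of the single log2 changes 1475 kept direction and call, 52 gained it and 44 lost it. Direction reversed for Mycn, to 0.11 rescaled, 0.081 with quantile normalization and 0.36 rescaled without Myc allele library 2, with -0.71 to 0.17 over single libraries left out (0.15 without library 2). The log2 change of Fcer1a reversed to 0.00396 with quantile normalization and 0.31 rescaled without library 2 (-0.42 to 0.18 over single libraries), and rescaled without library 2 Cpa3 turned to 0.17 and Ccng1 to 0.10. Over single libraries left out Cdkn1a ran from -0.11 to 2.74, Igkc from -0.20 to 3.13 (-0.05 without library 3) and Eif2s3y from -1.48 to 0.63 (0.31 without Cre control 6). None of the reversed values passed the test, and the cause was not tested. Small groups, unknown depth and the spread within the Myc allele group limit what can be called.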

Other observations

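Gene groups not described with the comparison are given by their members lower or higher in all Myc allele libraries, beside 11.9% lower and 3.91% higher over all genes. Of 45 interferon response genes 2 were lower in all Myc allele libraries and 0 higher, with library medians of 0.24, -0.61 and -0.63. Of 19 heat shock chaperones 3 were lower and 0 higher, and Hspa8, a constitutive chaperone, stood at 613, 566 and 846 TPM in the controls and at 396, 424 and 364 TPM in the Myc allele libraries. Of 49 splicing factors 7 were lower and 1 higher, of 36 lysosome and autophagy genes 5 were lower, and of 25 genes of the unfolded protein response 3 were lower. Of 15 Hox genes 1 was higher, Hoxb6, a homeobox factor of blood progenitors, at 1.71, 0.709 and 0.948 TPM against 2.85, 1.98 and 1.98 TPM. Of 17 circadian clock genes 1 was lower, Dbp, an output factor of the clock, at 21.1, 23.5 and 21.1 TPM against 15.7, 4.81 and 2.84 TPM (log2 change -1.67, SE 0.44, limma adjusted p = 0.397).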
